A study of Mus musculus with 9 samples.

Results

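H3K27me3 regions that were higher in the RANKL culture than in the WENRC culture, and that lay in exons or at gene ends away from any start site, are described here. They are the rows of the authors' list of RANKL-higher regions on chromosomes 1 to 19 whose annotation is an exon, a transcript end (TTS), a 3' UTR, a 5' UTR or a non-coding transcript, and whose distance to the nearest annotated start site exceeds 5000 bp. The rule was met by 871 regions, 3.07% of the 28339 autosomal regions of that list and 2.43% of all 35798. The other 7459 rows lie on chromosome X and are not members. The most rows on any other chromosome was 2882, on chromosome 2. The bearing of the many X rows on the autosomal ones was not tested. The regions were thus selected on measured H3K27me3 tags, so their tags and folds are given as a description with no test, and tests are kept to GRO-seq, which the rule did not use.

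All libraries came from mouse duodenal organoid cultures (mini-guts). Per the labels, RANKL is the M cell culture, ENRI the enterocyte culture and WENRC the stem cell culture; the labels do not spell out the abbreviations and give no strain, age or dose. The H3K27me3 ChIP-seq data are 2 RANKL libraries that the authors merged (32.7 M tags) and 1 WENRC library (36.3 M tags), so no H3K27me3 difference has a replicate check. GRO-seq, which sequences RNA still being made by engaged polymerase, covered RANKL, ENRI and WENRC with 2 libraries each. ENRI and WENRC libraries are labelled by mouse and RANKL libraries by replicate alone, so p-values measure the spread between libraries that may not all be separate animals. Per the file header, only the RANKL GRO-seq libraries merge reads with those of a second sequencing, so effects of the culture and of the sequencing cannot be told apart.

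H3K27me3 is placed on histone H3 by Polycomb repressive complex PRC2 and is read by PRC1. It commonly forms broad domains over silent developmental genes, often seeded at CpG-rich start sites and spread into the gene. M cells are the antigen-sampling cells of the epithelium over lymphoid follicles, and the cytokine RANKL drives their formation from crypt stem cells.

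Cell type markers were compared in GRO-seq as a check of the labels. Of 19 M cell markers, 14 were higher in RANKL than in WENRC in limma's test (Benjamini-Hochberg adjusted p under 0.05; median log2 change 2.96), against 8.53% of all 16563 genes tested. The stem cell list did not separate the cultures in this way: its summed level was 15.3 to 15.4 on the log2 scale in RANKL and 15.7 in both WENRC libraries. Markers of other cell types also rose in RANKL over WENRC. Of 18 enterocyte markers 6 rose and 1 fell, with a summed level of 15.3 to 15.5 in RANKL, 16.5 to 17.3 in ENRI and 13.6 to 14.4 in WENRC. Of 8 Paneth cell markers 3 rose and 1 fell, with Reg3g at 9.29 and 9.44 in RANKL and 4.08 and 4.55 in WENRC, and of 5 tuft cell markers tested 2 rose. The part of these cell types in the results below was not tested. Uty, a gene of the Y chromosome, was listed at 10.5 and 10.3 in the ENRI and WENRC libraries of mouse 1 and between 3.62 and 4.73 in the other 4 libraries. ENRI and WENRC thus each held a library with high Uty, and RANKL held none. The WENRC H3K27me3 library is not labelled by mouse. The bearing of this difference on the autosomal GRO-seq and H3K27me3 results below was not tested.

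Exons were the largest class among the regions. They held 426 of them (48.9%), transcript ends 215 (24.7%), 3' UTRs 183 (21.0%), non-coding transcripts 43 (4.94%) and 5' UTRs 4 (0.459%). In all they covered 755 kb. A region had a median of 29 RANKL tags, between 17 and 444, and a median of 10.8 WENRC tags after scaling to the RANKL depth, between 0.9 and 186.4. Counting error alone spans 19.4 to 41.6 tags at the median (exact Poisson 95% interval) and 9.90 to 27.2 at the lowest count. The authors' fold had a median of 2.81 and reached 22.22. It was at least 4 in 106 regions (12.2%), beside 13.9% of all RANKL-higher autosomal regions and 16.0% of those in introns over 5 kb from a start site. The start-site regions of the same list had more tags, with a median of 51 in RANKL and 19.8 in WENRC, and a lower median fold of 2.63.

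**Figure D1:**
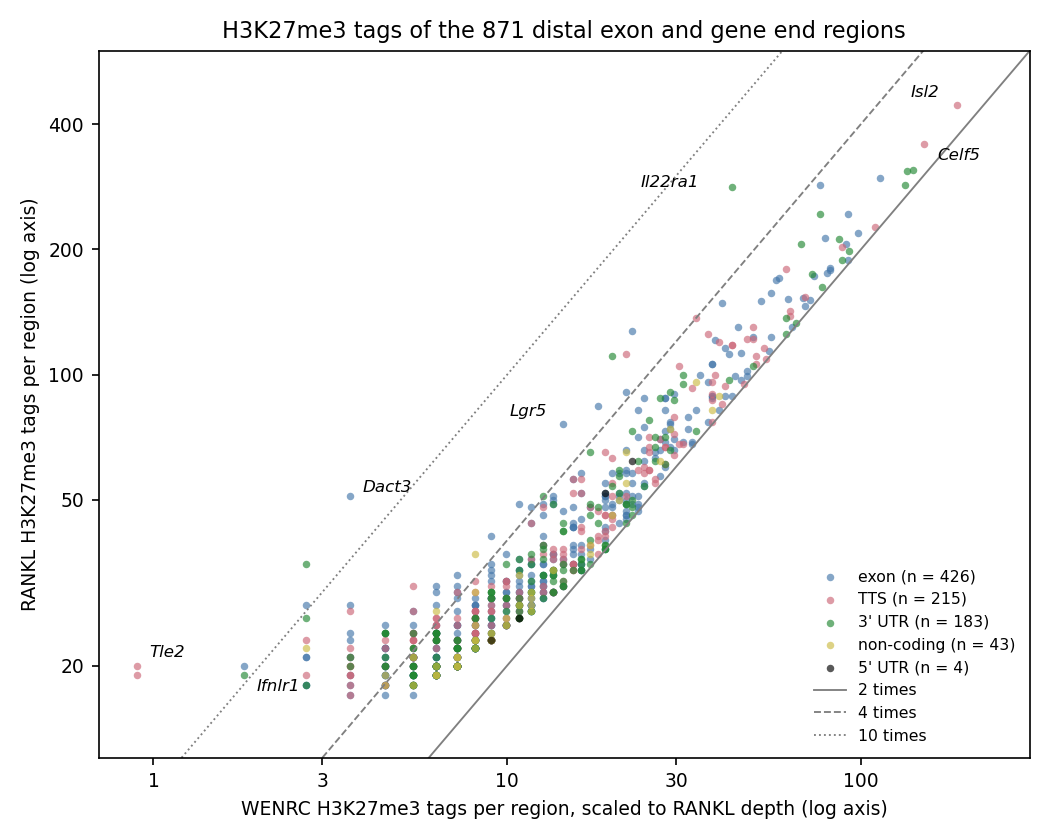
H3K27me3 tags of each of the 871 regions, with scaled WENRC tags on the x axis and RANKL tags on the y axis, both log axes, coloured by annotation class; the lines mark RANKL tags at 2, 4 and 10 times WENRC. Most regions lie between the 2 and 4 times lines at under 100 RANKL tags, and Il22ra1 stands apart with 282 against 43.2.

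The regions with the highest folds rested on few WENRC tags. A TTS region of Tle2, a Groucho-family corepressor, at chr10:81053976-81054476 (mm9, as all coordinates here) held 20 RANKL tags and 0.9 WENRC tags, a fold of 22.22. A TTS region of Trp53i11 at chr2:93042631-93043131 held 19 and 0.9 tags (fold 21.11). Exon 4 of 4 of Dact3, which encodes an antagonist of Wnt signalling, held 51 against 3.6 at chr7:17470471-17471598 (fold 14.16). The last exon of Pak6, a kinase gene, held 35 against 2.7 in its 3' UTR at chr2:118522003-118522844 (fold 12.96). Exon 36 of 36 of Iqgap2, a scaffold protein gene, held 20 against 1.8 at chr13:96397746-96398246 (fold 11.11). Of these 5, Dact3 has the highest tag count, and the 0.9 tags of Tle2 and Trp53i11 are the lowest WENRC value among the members.

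The regions with the most tags lay in last exons or at transcript ends, and their folds were near the lower limit of the list. The TTS region of Isl2, a LIM homeobox factor, at chr9:55392577-55396222 held 444 RANKL tags (exact Poisson 95% interval 404 to 487) and 186.4 WENRC tags, a fold of 2.38. The TTS region of Celf5, an RNA-binding protein gene, was the longest at 6188 bp (chr10:80918240-80924428) and held 359 against 151.2 tags (fold 2.37). The 3' UTR of Scrt2, a Snail-related repressor, held 311 against 140.4 (chr2:151918578-151922995, fold 2.21), and that of Nova2, a neuronal splicing factor, 308 against 135.0 (chr7:19541867-19546577, fold 2.28). Exon 9 of 9 of Hhipl1 held 296 against 113.4 (chr12:109563850-109568362, fold 2.61). Among the 5 longest regions, exon 2 of 2 of Gprin1 (5594 bp, chr13:54838409-54844003) held 286 against 76.5 (fold 3.74) and the 3' UTR of Il22ra1 (4703 bp, chr4:135305412-135310115) held 282 against 43.2 (fold 6.53). Il22ra1 thus joined a high tag count to a fold well above the median.

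Tag counts overlapped across the distance limit (negative distances are upstream of the nearest start). Just inside it were a TTS region of Accsl at -5015 bp (21 against 5.4 tags), an exon of Tmem200c at 5022 bp (51 against 23.4) and a non-coding region of Nlrp3 at 5024 bp (19 against 4.5). Just outside were C130026L21Rik at 4996 bp (20 against 7.2), Rab11fip5 at -4964 bp (63 against 27) and Tlr2 at 4957 bp (70 against 22.5).

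Exon regions lay toward the 3' end of their genes. They fell at a median of 73.8% of the gene's length from its start, against 49.6% for RANKL-higher regions in distal introns. In steps of 20% of the gene from start to end, they numbered 10, 37, 81, 125 and 172 of the 425 placed, so that 40.5% lay in the last step and 2.35% in the first. Distal intron regions were spread evenly, with 16.7% in the first step and 18.3% in the last. The 5000 bp limit holds for both sets and removes regions near the start from each, but it is not the same share of the gene. The tested host genes had a median length of 55.4 kb for exon regions and 80.4 kb for distal intron regions. Where exons themselves lie along these genes was not counted, and the bearing of both on the positions was not tested. The host transcripts of exon regions had a median of 16 exons, 77 exon regions (18.1%) were in the last exon, and all 183 3' UTR regions were in a last exon. The distance in the rule is to the nearest start site of any gene: that site belonged to the host gene for 517 of 866 regions (59.7%) and to another gene for 349 (40.3%), compared with 70.1% to the host for distal intron regions.

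**Figure D2:**
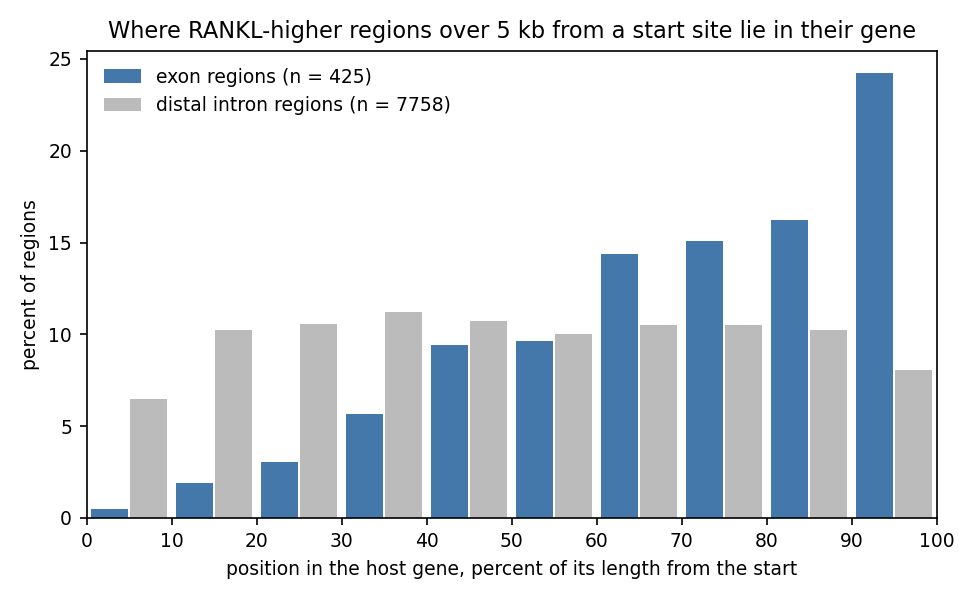
Percent of regions by position in the host gene, in steps of 10% of its length from the start, for 425 exon regions (blue) and 7758 distal intron regions (grey), all over 5000 bp from a start site. Exon regions increase toward the end, with 24.2% in the last step, where 8.06% of the intron regions lie.

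The regions were seldom isolated. The next RANKL-higher region lay at a median of 2623 bp, and within 5 kb for 584 regions (67.0%); the values for distal intron regions were 3007 bp and 62.0%. Only 39 regions had no other within 50 kb. One region overlapped a WENRC-higher region. By chromosome, most regions lay on chromosomes 2 (100), 7 (93) and 11 (86), and fewest on 16 (15). Per 100 listed genes, chromosome 15 held the most (5.05) and chromosome 16 the fewest (1.98).

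The regions lay in 714 host genes, a host gene being the gene of the transcript that the annotation names; 5 regions had no symbol. A host gene held 1 region in 603 cases, 2 in 82 and 3 or more in 29. Many hosts carried the mark elsewhere too: 283 (39.6%) also had a RANKL-higher region within 1 kb of a start site, against 9.58% of all listed genes and 36.6% of the hosts of distal intron regions, and 431 (60.4%) had a distal intron region. For 112 hosts (15.7%), the exon or end region was the only RANKL-higher region annotated to the gene. In the opposite direction, 193 hosts (27%) had a WENRC-higher region annotated to one of the gene's transcripts.

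Host genes were counted by family, from symbol patterns. Such patterns also take in genes outside a family, such as Chrna1os and Grid2ip under neurotransmitter receptors and Slc36a1os under solute carriers. Of all listed genes, 2.89% were hosts. The share was 20% for collagen and laminin genes (11 of 55), 15.9% for ion channel genes (26 of 164), 15.4% for adhesion G protein receptors (4 of 26), 12.6% for homeobox genes (21 of 167), 10.8% for keratins and mucins (7 of 65) and 8.82% for neurotransmitter receptors (9 of 102). It was 5.57% for solute carriers (22 of 395), 1.93% for zinc finger genes (10 of 518) and 0.133% for olfactory and vomeronasal receptors (2 of 1502). The host genes tested had a median length of 49.2 kb against 22.9 kb for all genes tested; the bearing of length on these shares was not tested.

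Host genes were weakly transcribed in all 3 cultures. Of the 714, 708 were in the GRO-seq table, 4 were listed at 0 in all libraries, 287 lay under the filter (a value of at least 10 before the logarithm in at least 2 libraries) and 417 were tested, 58.9% of those listed, against 67.6% of all listed genes. The tested hosts had a median level per kb of gene of -0.13 in RANKL, -0.14 in ENRI and -0.22 in WENRC on the log2 scale, where all genes tested had 3.69, 3.63 and 3.65. The low level was shared by hosts of other RANKL-higher regions. In the same order it was -0.41, -0.35 and -0.46 for hosts of distal intron regions and 0.77, 0.90 and 1.03 for those of start-site regions. Among hosts under the filter, Col1a1, a fibrillar collagen of fibroblasts with an exon region of 173 against 73.8 tags, ran from 2.13 to 2.46 over the 6 libraries. Vim, the intermediate filament of mesenchymal cells (2 regions, 104 against 41.4 tags), ran from 2.79 to 3.17, and Krt79, an epidermal keratin (213 against 79.2), from 1.86 to 2.24. In each of these 3 genes the 6 libraries lay close together near the bottom of the scale.

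The hosts' transcription did not move one way. The comparison asked whether genes with these regions were transcribed more or less in RANKL than in WENRC. Of the 417 tested, 29 rose (6.95%) and 20 fell (4.80%) in RANKL over WENRC by limma at an adjusted p under 0.05, and 368 did not pass. Over all 16563 genes tested, 12.1% passed, 8.53% of them upward and 3.62% downward as shares of genes tested. The hosts' shares are near these, and the median log2 change was 0.05 for hosts and -0.01 for all genes. Among all calls 70.2% were upward, a share that was 53.3% with each library recentred on its upper quartile and 58.7% after quantile normalization. The recentring shifted the median of all genes to -0.12 and that of the hosts to -0.07. Leaving out either RANKL library ended all 49 calls among hosts, and leaving out either WENRC library left 6; the direction of all 49 was the same in every setting run. The authors' deposited table gave all 49 an adjusted p under 0.05 with the same sign. By that adjusted p, 50 hosts were higher and 48 lower, where 27.8% of all genes passed. With only the 4 RANKL and WENRC libraries in the limma fit the counts were 58 and 52, where 31.4% of all genes passed.

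By class, 22 hosts of exon regions rose (8.59%) and 9 fell (3.52%) of 256 tested, near the 8.53% and 3.62% of all genes tested. Of 93 hosts of TTS regions, 7 rose (7.53%) and 5 fell (5.38%). Of 111 hosts of 3' UTR regions, 6 rose and 6 fell (5.41% each). Hosts of distal intron regions had 6.54% up and 4.34% down of 1682. Hosts of start-site regions, a partly shared set of genes, had 4.35% up and 6.62% down of 1586 and a median change of -0.11. Among exon and end hosts with a start-site region, 12 rose (6.70%) and 9 fell (5.03%) of 179. Of 238 without such a region, 17 rose (7.14%) and 11 fell (4.62%). These differences between sets were not tested.

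High folds of the mark gave another split. Of 74 tested hosts of regions with a fold of at least 4, 9 fell (12.2%) and 4 rose (5.41%), with a median change of -0.09, and 14.9% changed by -1 or less, against 3.31% of all genes. The 9 were Lgr5, Ifnlr1, Il22ra1, Myom3, Setbp1, 2310022B05Rik, Klhl8, Pcbp3 and Tanc2, of which 3 are neighbours in 1 locus. The 4 were Myom2, Nrxn2, Fam20c and Flt4; Myom3, Klhl8, Pcbp3, Tanc2, Fam20c and Flt4 were named after their values were seen. The difference between this subset and the other hosts was not tested.

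**Figure D3:**
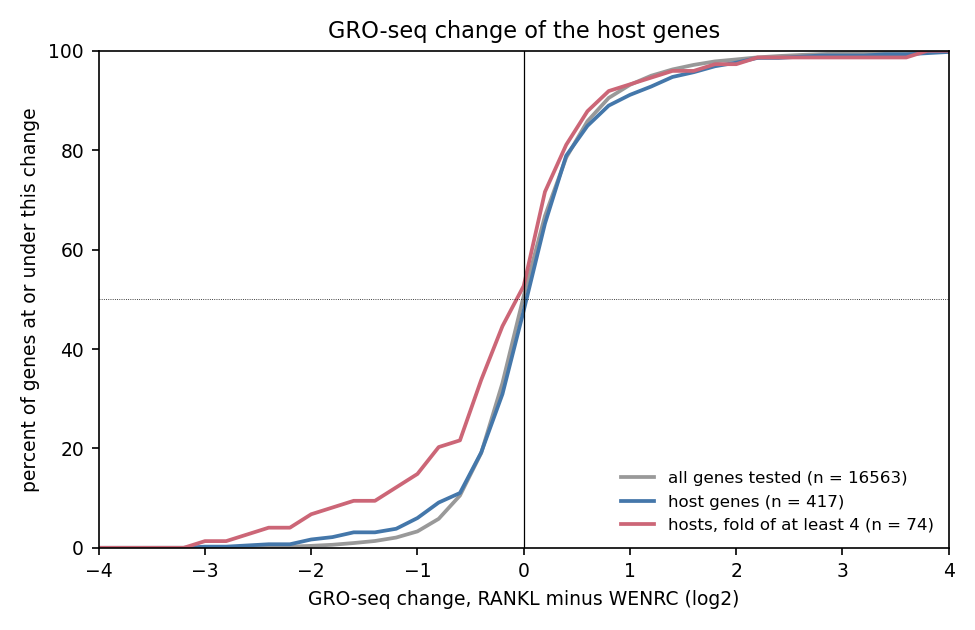
Cumulative percent of genes (y axis) at or under each log2 GRO-seq change, RANKL minus WENRC (x axis), for all 16563 genes tested, the 417 host genes and the 74 hosts of regions with a fold of at least 4. The host line follows the line of all genes, and the line of the 74 lies above both on the left, with 14.9% at -1 or less.

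Lgr5 had the largest fall among hosts. It encodes the R-spondin receptor that marks crypt base stem cells. Its GRO-seq values were 8.75 and 8.84 in RANKL, 8.89 and 8.51 in ENRI and 11.64 and 11.99 in WENRC. The WENRC libraries stood above the other 4, which overlapped. The log2 change in RANKL over WENRC was -3.02 (SE 0.19, limma adjusted p = 0.00166), 8.1-fold lower, and without either RANKL library the adjusted p was 0.0530 and 0.0543. The exon region of Lgr5 at chr10:114931318-114933182 held 76 RANKL and 14.4 WENRC tags (fold 5.28). It was 1 of 13 RANKL-higher regions in and around the gene, which together held 1375 against 382.5 tags over 26.8 kb, from the start site to 109 kb downstream of it, with no WENRC-higher region listed. Lgr5 overlaps A930009A15Rik in the table, so their reads cannot be told apart.

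The stem cell list as a whole did not move one way. Of its 15 markers, 2 fell (Lgr5 and Lrig1) and 2 rose (Tnfrsf19 and Msi1), with a median change of -0.09 and no marker at 0. In bulk cultures, fewer stem cells and less Lgr5 RNA per cell cannot be told apart.

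A cluster of adjacent genes on chromosome 4, chosen after its values were seen, held RANKL-higher regions in all 3 genes. Ifnlr1 encodes the receptor chain for lambda interferons and Il22ra1 the receptor chain for interleukins that act on epithelium; Myom3, a sarcomere gene, follows them on the same strand. Between 5 kb before Ifnlr1 and 5 kb after Myom3, 19 RANKL-higher regions held 2161 RANKL tags and 340.2 WENRC tags over 40.4 kb, with folds from 2.72 to 25.55 (median 4.29). Of the 19, 3 are members: the 3' UTR of Ifnlr1 (chr4:135263317-135263817, 19 against 1.8 tags, fold 10.55), the 3' UTR of Il22ra1 described above, and an exon of Myom3 (chr4:135352712-135353212, 22 against 4.5 tags, fold 4.89).

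All 3 genes of that cluster fell in GRO-seq. Il22ra1 was at 7.26 and 7.12 in RANKL, 10.73 and 11.47 in ENRI and 9.53 and 9.06 in WENRC. RANKL over WENRC was -2.11 (SE 0.28, limma adjusted p = 0.0097). Ifnlr1 was at 6.06 and 5.86 in RANKL, 9.12 and 9.41 in ENRI and 8.5 and 8.63 in WENRC (-2.61, SE 0.18, limma adjusted p = 0.00181). Myom3 was at 5.92 and 6.03 in RANKL, 8.35 and 8.67 in ENRI and 7.32 and 7.21 in WENRC (-1.29, SE 0.19, limma adjusted p = 0.0122). In each gene the RANKL libraries lay below the other 4, and ENRI, which has no H3K27me3 library in this series, was the highest. Neighbouring genes are not independent examples.

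**Figure D4:**
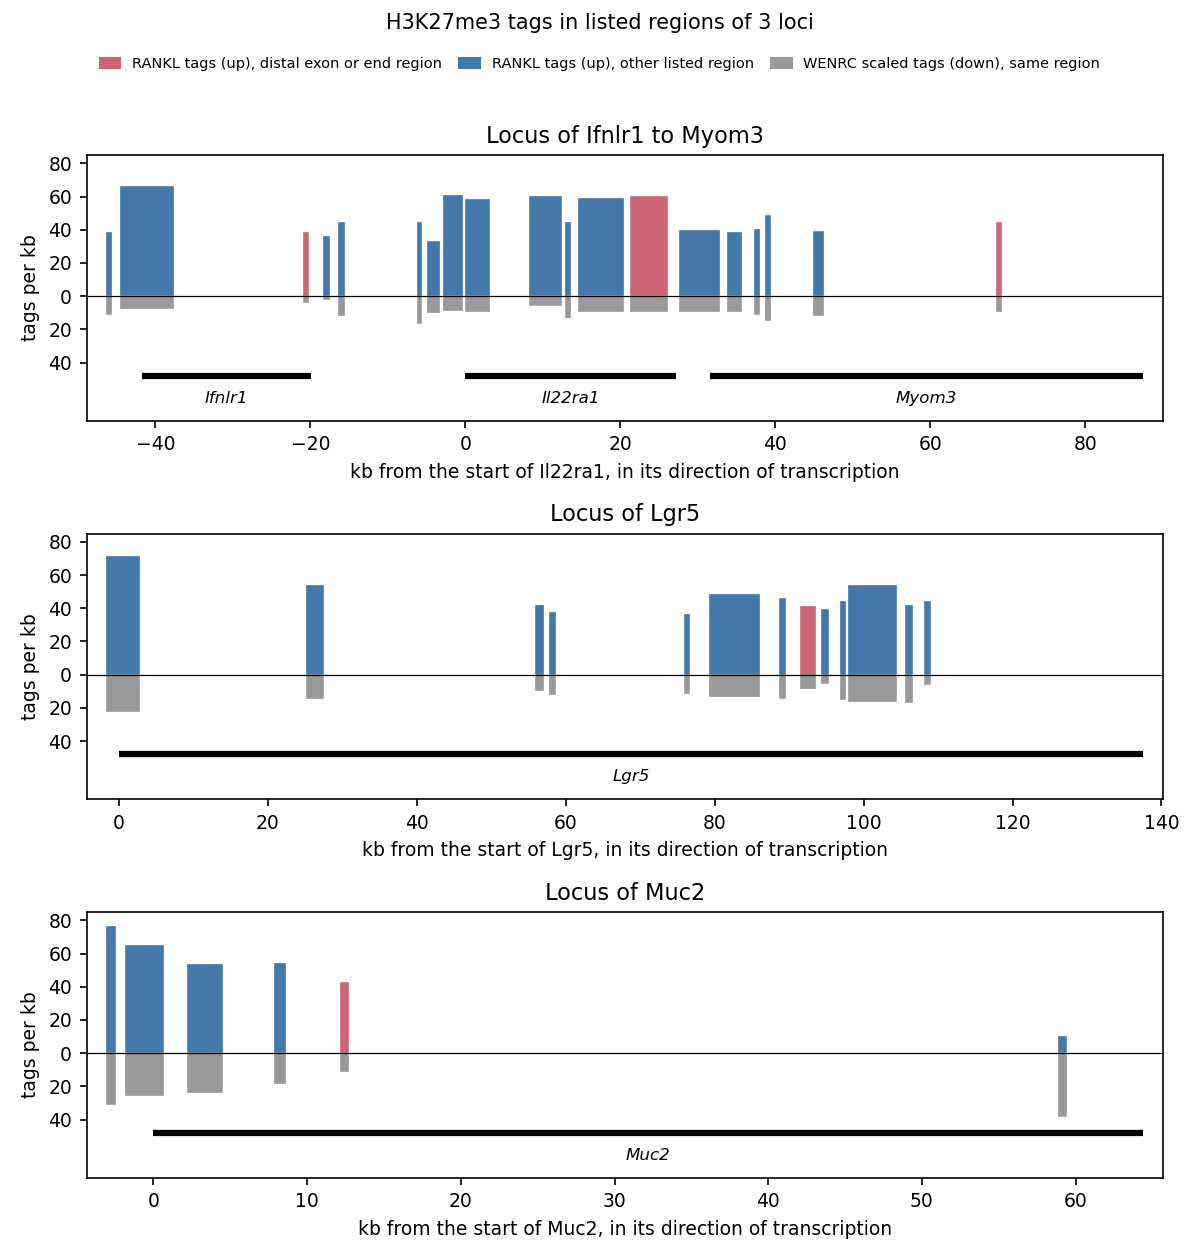
RANKL tags per kb (upward) and scaled WENRC tags per kb (downward) in the listed regions of 3 loci, against kb from the start of Il22ra1, Lgr5 and Muc2; red bars are distal exon or end regions, blue bars other listed regions, black lines genes, and stretches with no bar have no listed region. RANKL exceeds WENRC in all regions of the first 2 loci, and the single region at 58.9 kb in Muc2 is higher in WENRC.

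Other large falls were of genes with a single distal exon or end region each, beside further RANKL-higher regions. In and around the gene, Hsd17b13 had 4 RANKL-higher regions in all, Fosb 3 and 2310022B05Rik 6. Those of 2310022B05Rik held 1267 RANKL against 280.0 WENRC tags. Hsd17b13, a lipid droplet enzyme gene, was at 6.56 and 6.94 in RANKL, 8.32 and 8.81 in ENRI and 9.21 and 8.49 in WENRC (-2.10, SE 0.30, limma adjusted p = 0.0123), with 23 against 7.2 tags in its 3' UTR. Fosb, a transcription factor gene of the Fos family, was at 8.15 and 7.99, 9.79 and 10.93, and 9.54 and 9.94 in the same order (-1.67, SE 0.37, limma adjusted p = 0.0403), with 90 against 37.8 tags at its TTS. In both genes the RANKL libraries lay below the other 4. 2310022B05Rik was at 5.78 and 5.76 in RANKL, 7.55 and 7.28 in ENRI and 7.60 and 7.46 in WENRC (-1.76, SE 0.18), with 137 against 34.2 tags at its TTS.

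Setbp1, which encodes a SET-binding nuclear protein, fell by 2.04 (25 against 5.4 tags, 13 RANKL-higher regions in the gene), and Ptpro, a receptor phosphatase gene, by 1.78 (29 against 9.0 tags). In these 2 the ENRI libraries were split, at 9.26 and 7.86 for Setbp1 and 5.90 and 7.04 for Ptpro, so RANKL was below WENRC but not below ENRI. Zc3h12c, a zinc finger regulator of RNA, fell by 2.17 (limma adjusted p = 0.0491) and Lipg, a lipase gene, by 1.72 (limma adjusted p = 0.0489); both calls were lost without the filter (0.0581 and 0.0580), without the variance trend (0.0532 and 0.0525), after quantile normalization (0.0563 and 0.0631) and with the replicate block (0.0507 and 0.0617). The call of Ptpro was lost after quantile normalization (0.0522). Zc3h12c overlaps Mir6244. Enah, an actin regulator with 4 regions (191 against 54.9 tags) among 33 RANKL-higher regions in the gene, did not pass. Its values were 5.44 and 5.26 in RANKL, 9.15 and 6.42 in ENRI and 7.13 and 8.70 in WENRC (-2.57, SE 0.92, limma adjusted p = 0.13). It passed with only the RANKL and WENRC libraries in the limma fit (0.00508) and by the authors' deposited adjusted p (4.31e-10).

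The largest rise was that of Col13a1, a transmembrane collagen. It was at 9.42 and 9.50 in RANKL, 3.63 and 4.93 in ENRI and 3.08 and 4.84 in WENRC. The change was 5.50 (SE 0.65, limma adjusted p = 0.0074), 45.2-fold. Its TTS region (chr10:61299750-61300250) held 18 against 5.4 tags. In the gene and 5 kb around it, 16 RANKL-higher regions held 780 against 296.1 tags, and 5 WENRC-higher regions, all in introns between 87.9 and 126 kb from the start, held 18 RANKL against 99.9 WENRC tags. Listed regions of both directions thus stood in the gene that rose most.

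Adgrb1, an adhesion receptor for dying cells, was at 7.74 and 7.60 in RANKL, 4.56 and 5.14 in ENRI and 3.51 and 3.98 in WENRC (3.93, SE 0.28, limma adjusted p = 0.00185), with an exon region of 47 against 14.4 tags and a start-site region. Myom2, a sarcomere gene like Myom3, went the other way from it: it was at 7.68 and 7.61 in RANKL, 3.87 and 4.89 in ENRI and 3.71 and 4.19 in WENRC (3.70, SE 0.37, limma adjusted p = 0.00485), with an exon region of 18 against 4.5 tags. In these genes and Col13a1 the RANKL libraries lay well above the other 4.

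Muc2, the gel-forming mucin of goblet cells, was low in WENRC rather than high in RANKL alone. It was at 10.58 and 10.37 in RANKL, 10.86 and 11.00 in ENRI and 7.44 and 7.0 in WENRC, and RANKL over WENRC was 3.25 (SE 0.19, limma adjusted p = 0.00144). It was the only 1 of the 29 rising hosts with both RANKL libraries below both ENRI libraries. Its exon region at chr7:148888418-148888918 held 21 against 5.4 tags, and 5 RANKL-higher regions from 3 kb before the start to 12.7 kb after it held 367 against 144.0. Of 9 goblet cell markers 5 rose, with a median change of 1.45. Their summed level was 13.7 in both RANKL libraries, 13.4 to 13.9 in ENRI and 11.0 to 12 in WENRC, with no marker at 0; its part in the Muc2 result was not tested.

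Tph1 encodes the rate-limiting enzyme of serotonin synthesis in enteroendocrine cells and was 1 of the 10 hosts with the most regions. Its 4 regions, in 2 exons and the 3' UTR, held 140 RANKL against 61.2 WENRC tags, with a highest fold of 2.43. Its values were 7.45 and 7.83 in RANKL, 6.23 and 6.79 in ENRI and 5.27 and 5.95 in WENRC (2.03, SE 0.32, limma adjusted p = 0.0152). The groups did not overlap. Of 9 enteroendocrine markers tested, 1 rose (Chga), and the summed level of the 12 listed was 10.6 to 11.0 in RANKL, 9.70 to 10.3 in ENRI and 9.61 to 9.91 in WENRC; its part in the Tph1 result was not tested. Cck, a gut hormone gene of the same list with a TTS region of 37 against 18.0 tags, was at 3.93 and 4.27 in RANKL and 3.90 and 4.21 in WENRC, and did not pass.

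Syt7, a calcium sensor of secretion, was at 9.61 and 9.70 in RANKL, 7.08 and 6.37 in ENRI and 7.10 and 7.41 in WENRC (2.40, SE 0.27, limma adjusted p = 0.0063), with 19 RANKL-higher regions in the gene and 48 against 18.0 tags in its 3' UTR. Nrxn2, a neurexin, was at 6.97 and 7.02 in RANKL, 5.96 and 7.0 in ENRI and 4.69 and 5.09 in WENRC (2.11, SE 0.36), with 3 regions of 165 against 74.7 tags. In Nrxn2 the second ENRI library lay between the RANKL values, and in Syt7 RANKL stood above all others.

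Pde2a, a cyclic nucleotide phosphodiesterase, rose by 2.20 (SE 0.34) with 2 exon regions of 94 against 30.6 tags (it overlaps Mir139), and Chst8, a sulfotransferase, by 2.65 (SE 0.43) with 58 against 16.2 tags in an exon, its only RANKL-higher region. Stra6, the retinol uptake receptor, rose by 1.91 (limma adjusted p = 0.0485), a call that was lost under 5 settings, among them no filter (0.06) and upper quartile recentring (0.0564). Of the 29 rising hosts, 14 had a WENRC-higher region annotated to the gene, and of the 20 falling hosts 2 had one, beside 139 of the 417 tested. Where a WENRC-higher region lay within 5 kb of the start, 8 of 41 tested hosts rose (19.5%), with a median change of 0.24, beside 6.95% of all tested hosts and 8.53% of all genes. By limma 0 of the 41 fell, 1 was lower at an unadjusted p under 0.05, and 3 were lower by the authors' deposited adjusted p. These 8 were Chst8, Myom2, Nrxn2, Pde2a, Syt7, Ankrd6, Flt4 and Traf1, the last 3 named after their values were seen. Whether this share differs from that of the other hosts was not tested.

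**Figure D5:**
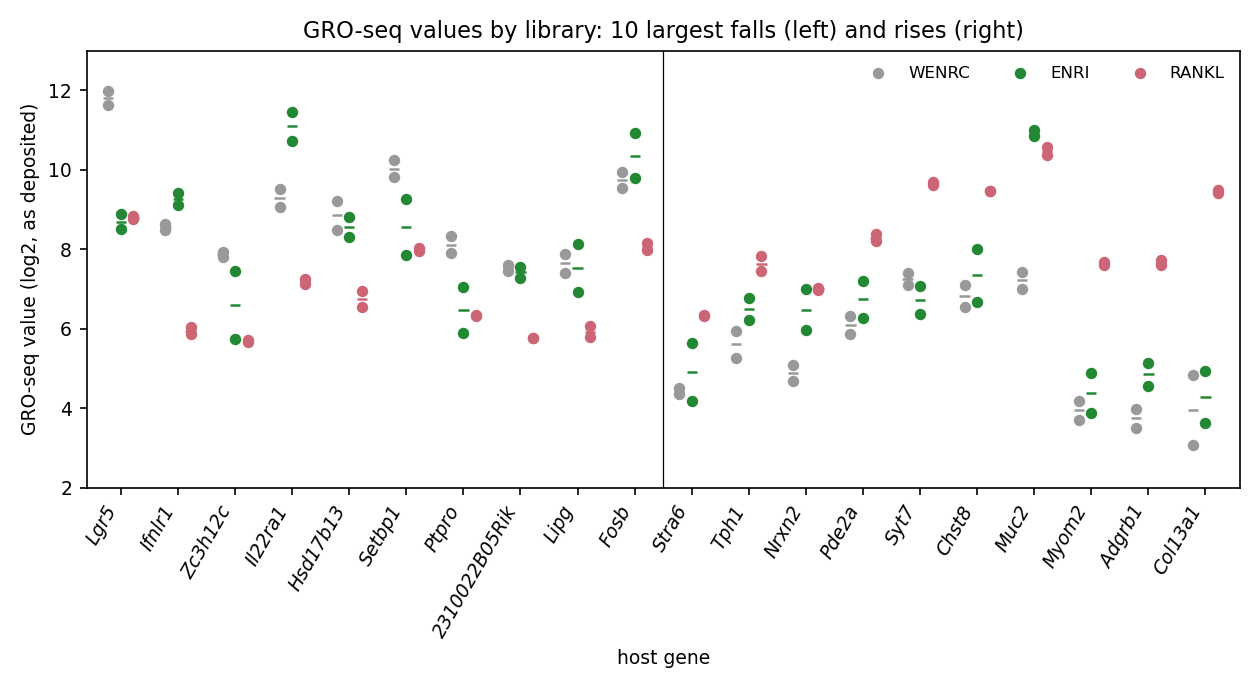
GRO-seq values as deposited (log2) in each library for the 10 host genes with the largest falls (left) and the 10 with the largest rises (right) in RANKL over WENRC; dots are libraries and bars the means of 2. RANKL lies apart from WENRC in all 20 genes, and Muc2 is the rise in which ENRI lies above RANKL.

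Of the 10 hosts with the most regions, Tph1 alone passed limma's test, a share near the 12.1% of all genes. By the authors' deposited adjusted p, Enah (4.31e-10) and Nova2 (0.0285), both lower in RANKL, passed as well as Tph1 (2e-09). By that measure 27.8% of all genes passed. Ryr1, the calcium release channel of skeletal muscle, had 5 exon regions (257 against 86.4 tags) among 26 RANKL-higher regions. It was at 6.18 and 5.73 in RANKL, 5.24 and 5.67 in ENRI and 5.40 and 5.97 in WENRC (0.27, SE 0.30). Scn8a, a neuronal sodium channel, had 5 regions (255 against 108.9 tags) and was at 6.06 and 5.86 in RANKL and 5.86 and 6.63 in WENRC (-0.29, SE 0.38). Adam11 had 5 regions (160 against 63.0 tags) and a change of -0.55 (SE 0.18, limma adjusted p = 0.101). In Ryr1 and Scn8a the RANKL and WENRC libraries overlapped. Sptbn4 and Map6 had 4 regions each, with changes of -0.17 and 0.12, and Nova2 had 3 and a change of -0.87 (limma adjusted p = 0.108).

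Within the families, the hosts that passed are given beside the family's other genes; 12.1% of all genes passed. Of 10 tested homeobox hosts, 1 passed: Lhx3, a LIM homeobox factor of pituitary and motor neurons, at 3.84 and 3.74 in RANKL, 4.13 and 4.15 in ENRI and 4.90 and 4.99 in WENRC (-1.16, SE 0.17, limma adjusted p = 0.0127), with 162 against 77.4 tags in its 3' UTR. Isl2, which had the most tags of all, was at 3.49 and 3.47 in RANKL and 3.71 and 3.37 in WENRC (-0.06, SE 0.19). Onecut3, with 243 against 76.5 tags, was at 6.18 and 5.90 in RANKL and 6.94 and 6.10 in WENRC (-0.48, SE 0.45). Over the 75 homeobox genes tested, hosts or not, 5 rose and 9 fell. Of 20 tested ion channel hosts, 1 passed (10 rose and 1 fell of the 120 channel genes tested), the calcium channel Cacna1a, at 11.0 and 11.1 in RANKL and 9.5 and 9.98 in WENRC (1.32, SE 0.30). Of 7 collagen and laminin hosts, Col13a1 passed (2 rose and 2 fell of 45 such genes tested), while Lamb1, with 3 exon regions (71 against 22.5 tags), had a change of -0.50 (SE 0.35).

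Among ligands, receptors and adhesion genes, Wnt6 had an exon and a TTS region (93 against 39.6 tags) and was at 5.57 and 5.58 in RANKL, 4.90 and 4.93 in ENRI and 4.6 and 4.83 in WENRC (0.86, SE 0.18, limma adjusted p = 0.0362). The groups did not overlap, but the call was lost with upper quartile recentring (0.0669), without the filter (0.0608) and with the replicate block (0.0645). Wnt16, with 23 against 3.6 tags in an exon, was at 6.05 and 6.32 in RANKL, 7.60 and 7.43 in ENRI and 6.77 and 6.05 in WENRC (-0.23, SE 0.28). Cdh23, a cadherin with 38 RANKL-higher regions in the gene, was at 9.35 and 9.46 in RANKL and 8.17 and 7.87 in WENRC (1.38, SE 0.16, limma adjusted p = 0.00739); it overlaps Vsir and Gm17455, from which its reads cannot be told apart. Of 12 tested solute carrier hosts, Slc43a1 passed (26 rose and 16 fell of 344 such genes), with a change of -0.93 (SE 0.18). Slc12a5, the chloride exporter of neurons, with 198 against 92.7 tags, had a change of -0.19 (SE 0.17). Cacna1a and Slc43a1 were named after their values were seen.

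Further hosts with high tag counts in their families did not pass. Cdh22, a brain cadherin with 3 regions (265 against 115.2 tags) among 28 RANKL-higher regions, was at 4.23 and 3.70 in RANKL and 3.49 and 4.01 in WENRC (0.21, SE 0.30). Wnt8b, a Wnt ligand with 142 against 63.0 tags at its TTS, was at 4.23 and 4.2 in RANKL and 4.37 and 4.28 in WENRC (-0.11, SE 0.17). Col9a2, a cartilage collagen with 130 against 45.0 tags in an exon, was at 4.17 and 4.15 in RANKL and 4.31 and 4.61 in WENRC (-0.30, SE 0.19). The groups overlapped in Cdh22 and lay close together in the other two.

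Adra1b, an adrenergic receptor with 49 against 21.6 tags in its 3' UTR, was at 6.53 and 6.36 in RANKL, 3.99 and 5.52 in ENRI and 3.75 and 4.81 in WENRC. The RANKL libraries lay above all others, yet the change of 2.16 (SE 0.57) missed the threshold (limma adjusted p = 0.0612). In limma it passed after quantile normalization (0.0384), with the replicate block (0.0401) and with only the RANKL and WENRC libraries (0.00314). It also passed by the authors' deposited adjusted p (0.0410). It missed in limma without the filter (0.0746), without the variance trend (0.0644) and with upper quartile recentring (0.0856). Kdr, an endothelial marker under the filter (36 against 10.8 tags in an exon), ran from 2.33 to 2.79 over the 6 libraries.

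The M cell, enterocyte and Polycomb lists held no host, where 2.89% of all listed genes are hosts and lists of 13 to 19 genes would hold less than 1 at that share. Of 13 PRC2 genes, 3 rose in RANKL over WENRC: Jarid2 at 15.1 and 15.2 in RANKL and 13 and 13.4 in WENRC (1.92, SE 0.23), Ezh1 (0.82, SE 0.15) and Lcor (0.86, SE 0.13). Ezh2, the main methyltransferase of dividing cells, was at 10.5 and 10.7 in RANKL and 10.6 and 10.5 in WENRC (0.06, SE 0.21). Of 19 PRC1 genes, 4 rose, with Kdm2b, which recruits PRC1 to CpG-rich DNA, at 1.95 (SE 0.18) and Cbx2, a reader of the mark, at 1.10 (SE 0.21). Over all genes tested 8.53% rose, and the median change was 0.27 for the PRC2 list and 0.10 for the PRC1 list. The demethylase genes Kdm6a (0.80, SE 0.22) and Kdm6b (0.53, SE 0.21) did not pass. The bearing of these genes on the regions was not tested.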

How the data were processed

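Libraries were mouse duodenal organoids: 6 of GRO-seq and 3 of H3K27me3 ChIP-seq. Per the submitters' processing notes, the tools were Bowtie2 2.3.4.1, HOMER and DESeq2, with genome build mm9. Per the file headers, the authors called each culture's regions with HOMER using the other culture as control. RANKL tags per region are counts as deposited. WENRC tags, scaled by the authors by 0.9 with a floor of 0.5, are a signal. The deposited fold is a ratio of the 2 and was at least 2, and the deposited p-value was at most 9.87e-05. GRO-seq values were deposited by the authors as normalized log2 values over whole genes. Their shape is that of a regularized logarithm, which draws low values together and understates changes of weak genes; strand handling and read depth are not given in the sources used here.

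The members and gene lists were chosen with earlier results of these data known. Region classes, host genes and gene lists were counted with Python 3.11.15 and pandas 2.3.3. Because the GRO-seq table holds log2 values and not counts, limma 3.58.1 (R 4.3.3) with a variance trend was fitted to 3 group means over 6 libraries. The 16563 genes with a value of at least log2 of 10 in at least 2 libraries were tested, with two-sided p-values and Benjamini-Hochberg adjustment at a threshold of 0.05. The fit was tested on simulated data. SEs are from that fit, which used a spread shared by the 3 cultures, ENRI included, and n is 2 libraries per culture. The replicate SD of tested hosts had a median of 0.104 in RANKL, 0.323 in ENRI and 0.202 in WENRC. Of the tested hosts, 3 passed the filter through RANKL alone, and all 3 were called higher. Accessions were matched to symbols through a RefSeq table of GRCm38, and no coordinates of that build are given; for 24288 of 24505 genes the match succeeded. Named regions were the 5 with the highest fold, the most RANKL tags and the greatest length, and those nearest the distance limit. Named hosts were the 10 with the most regions, the 10 largest called rises and falls, up to 4 per gene family by tags, and all that were in a gene list; some of these are not reported here. Alternatives were the ones given under the dependence on processing.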

Additional observations from a re-analysis of the deposited data

How the results depend on the processing

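The number of regions was 106 at an authors' fold of at least 4, 477 at an authors' p of at most 1e-06 and 570 at over 10 kb from a start site; host genes numbered 100 and 459 at that fold and that distance. Hosts with a start-site region made up 67.5% within 5 kb, and 0 regions overlapped a WENRC-higher region by at least 50%. Rising hosts numbered 50 by the authors' deposited adjusted p, 58 with only the RANKL and WENRC libraries, 4 at a fold of at least 4, and 0 to 58 with 1 library left out. Falling hosts numbered 48, 52 and 9 in the same order, and 0 to 51. Calls over all genes numbered 4604 and 5194 under the first 2 of these and 0 to 5176 with 1 library left out. The 0 stands for either RANKL library left out, where limma gave 2702 and 2486 genes, and 60 and 62 hosts, an unadjusted p under 0.05; 1 RANKL library is then assumed to vary like the other groups. The hosts' median change was -0.10 without WENRC replicate 1, the lowest, and 0.13 without replicate 2, the highest. With the replicate block, 27 hosts rose and 13 fell, and 37 of the 49 calls were kept. Same-numbered RANKL and WENRC libraries correlated at -0.32 in their deviations, and WENRC and ENRI libraries, labelled by mouse, at 0.41. These correlations cannot settle whether a RANKL library shares a mouse with the others. Uty was at 10.5 and 10.3 in the libraries of mouse 1 and at 4.73 and 4.33 in RANKL, so by Uty neither RANKL library resembled mouse 1. Mouse 2, at 3.62 and 3.98, was not set apart from RANKL in this way. Of the 23 called named hosts, 4 lost the call without the filter, 3 without the variance trend, 4 with the block, 4 with quantile normalization and 2 with upper quartile recentring, and no change of direction occurred in any of these. Leaving out hosts that overlap another listed gene, chosen after seeing the data, left 27 rising and 17 falling of 345. Depth limits the H3K27me3 values to counting error at 17 or more tags per region, with no replicate error, and GRO-seq depth is unknown.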
